A study of Mus musculus with 2 samples.

Results

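*F10*, *F7*, *F13a1*, *F5*, *F3*, *Plau*, *Plaur*, *Thbd*, *Pf4* and *Serpinb2*, genes of blood coagulation and plasminogen activation, are described here in CD45+ cells of the mouse heart. They are 10 of the 27809 genes in the matrix, were found by their symbols, and all 10 were kept. They had been selected on earlier readings of the same cells, so their levels are given as a description. CD45+ cells, the leukocytes, were collected 1 week after sham surgery or transverse aortic constriction (TAC), which loads the heart with pressure. The mice were young adult males, labelled C57BL/6N, and the methods give a C57BL/6 background for both genotypes. Wild-type (WT) and CD3ϵ-/- mice each gave a sham and a TAC group, and another group of WT mice had TAC and an antibody to CD8, written below as the sample labelled CD8-depleted TAC. CD3ϵ-/- mice lack this chain of the T cell receptor complex from birth and in every tissue. Lists of 5 values run from WT sham to CD3ϵ-/- sham, WT TAC and CD3ϵ-/- TAC, with the CD8-depleted sample last. Each group carried 1 hashtag in 1 pooled TAS-Seq library and was 1 sample, with the number of hearts behind it not given in the sources used here. Groups were therefore compared by their values, without a test.

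Coagulation starts when tissue factor (*F3*) binds factor VII (*F7*), and this complex activates factor X (*F10*). Factor X with its cofactor factor V (*F5*) makes thrombin, fibrin forms, and the transglutaminase factor XIII (A subunit, *F13a1*) crosslinks it, while thrombomodulin (*Thbd*) turns thrombin toward protein C. Urokinase (*Plau*) on its receptor (*Plaur*) makes plasmin, which dissolves fibrin, and PAI-2 (*Serpinb2*) inhibits urokinase. Platelet factor 4 (*Pf4*) is a heparin-binding chemokine named for platelet granules. Most clotting factors in plasma come from the liver, and macrophages are a known source of factor XIII A, urokinase and its receptor.

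The filters kept 1000, 835, 1615, 919 and 894 cells, with a median of 75442 to 117788 reads per cell. Monocytes and macrophages were gated as cells with at least 200 CPM (reads of a gene scaled to a common total) of *Csf1r* and 2000 CPM of *Lyz2*, which gave 565, 485, 1095, 672 and 607 cells. All 5 monocyte and macrophage markers were read in the gated cells of each group. *Csf1r* and *Lyz2* are among them and set the gate, so their reads were fixed in advance. The others were *Adgre1*, *Cd68* and *Fcgr1*. *Cd3e*, the gene disrupted in CD3ϵ-/- mice, had reads in 69, 42, 103, 83 and 51 kept cells, at 17.8, 3.73, 10.8, 5.64 and 13.6 CPM. The source of its reads in the CD3ϵ-/- groups was not tested. *Cd3g* reads were found in 53, 3, 47, 1 and 32 kept cells, and *Cd8a* or *Cd8b1* reads in 10, 2, 19, 4 and 9 cells. For *Cd8a* or *Cd8b1* the share was 1.01% (exact 95% interval 0.461% to 1.90%) in the sample labelled CD8-depleted TAC and 1.18% (0.710% to 1.83%) in WT TAC, so a lower share was not detectable. Platelet and megakaryocyte markers summed to 10.8, 2.94, 7.92, 11.4 and 6.86 CPM in gated cells. Of these markers only *Gp9* was at 0 in WT sham, and it was at most 0.0824 CPM in any class. The hepatocyte markers *Alb*, *Apoa1* and *Ttr* were at 0 in all 5 groups. A gene not among the genes kept is also given as 0, so these values cannot show a measured absence. Summed CPM of 8 genes that respond to tissue digestion was 13679 and 11760 in the sham groups and 5664 to 6833 in the TAC groups, and its part in the results was not tested.

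Gated cells were split in order into Saa3-high (at least 1000 CPM), Ly6c2-high (1000 CPM), Spp1-high (1000 CPM), Lyve1-high (200 CPM), Ccr2-high (1000 CPM) and Ccr2-low cells. These classes are ranges of a level and not cell types. Lyve1-high cells had a median of 969 CPM of *Lyve1* and 0 CPM of *Ccr2*, and 12 cells lay between 100 and 200 CPM of *Lyve1*. Ly6c2-high cells had a median of 2617 CPM of *Ccr2*, and 134 cells lay between 500 and 1000 CPM of *Ly6c2*. The medians of *Ly6c2*, *Spp1* and *Ccr2* in Saa3-high cells were 9.12, 16.8 and 9.27 CPM. Lyve1-high cells made up 12.04%, 6.19%, 4.57%, 1.93% and 4.94% of gated cells, and Ly6c2-high cells 3.36%, 5.15%, 9.04%, 19.8% and 18.9%. Saa3-high cells numbered 0, 0, 2, 24 and 6, so their values rest on CD3ϵ-/- TAC. They also carried *Prg4* at 1916 CPM and *Arg1* at 4035 CPM. Markers of macrophages of the body cavities (*Saa3*, *Prg4*, *Gata6*, *Icam2*, *Alox15* and *Selp*) summed to 23.0, 24.7, 33.4, 1420 and 264 CPM in gated cells of the 5 groups. This list includes *Saa3*, which set the class and was 12753 CPM in Saa3-high cells, so the sum largely restates the class limit. The part of Saa3-high cells and of these markers in the levels of *F5* and *Serpinb2* was not tested. Cd79a-high cells outside the gate, which carry a B cell gene, gave the background.

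The 10 genes fell into contrasting patterns over these classes, and the bases before the start of 4 of them are printed because those genes stood at the ends of that contrast. *F5* and *Serpinb2* were high in Saa3-high cells and at or near 0 in Lyve1-high cells, whereas *F13a1* and *Pf4* had their highest levels in Lyve1-high cells. The RefSeq promoter table (GRCm38.p6) held 8 of the 10 genes, and *Plau* and *Thbd* had no entry. The windows are the 250 bases before the first listed start, namely chr1:164151585-164151834 on the plus strand for *F5*, chr1:107511173-107511422 on the plus strand for *Serpinb2*, chr13:37050245-37050494 on the minus strand for *F13a1* and chr5:90772185-90772434 on the plus strand for *Pf4*. Each is written 5′ to 3′ along its gene, with matches in capitals. The letters searched, on both strands, were AGATAA for the GATA type, GAGGAA for the PU.1 type, TGAGTCA for the AP-1 type and TATAAA for the TATA type.
F5: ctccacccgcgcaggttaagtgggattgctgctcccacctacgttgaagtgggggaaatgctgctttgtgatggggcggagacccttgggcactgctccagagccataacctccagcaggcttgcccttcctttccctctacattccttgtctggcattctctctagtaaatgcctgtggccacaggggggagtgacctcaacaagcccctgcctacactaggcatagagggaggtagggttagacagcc
Serpinb2: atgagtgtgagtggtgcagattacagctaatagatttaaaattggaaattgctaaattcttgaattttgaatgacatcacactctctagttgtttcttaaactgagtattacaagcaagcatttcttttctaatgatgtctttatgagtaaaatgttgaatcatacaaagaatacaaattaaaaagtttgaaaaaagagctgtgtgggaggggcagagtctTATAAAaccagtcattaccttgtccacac
F13a1: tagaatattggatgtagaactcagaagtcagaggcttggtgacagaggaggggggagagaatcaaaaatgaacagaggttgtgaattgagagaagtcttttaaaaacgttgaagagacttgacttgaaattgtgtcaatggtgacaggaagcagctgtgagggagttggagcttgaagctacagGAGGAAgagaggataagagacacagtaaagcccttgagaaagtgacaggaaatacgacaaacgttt
Pf4: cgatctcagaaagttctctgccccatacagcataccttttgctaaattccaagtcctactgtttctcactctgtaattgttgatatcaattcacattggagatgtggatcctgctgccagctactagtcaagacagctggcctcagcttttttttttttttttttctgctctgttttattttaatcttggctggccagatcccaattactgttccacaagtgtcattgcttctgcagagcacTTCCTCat
*F13a1* and *Pf4* each had 1 PU.1-type match, *Serpinb2* had 1 TATA-type match, and *F5* had none of the 4 motifs. Among 27025 promoters of the same length, the PU.1-type letters were found in 23.1%, the TATA-type in 12.97%, the GATA-type in 10.3% and the AP-1-type in 4.43%. *Plaur* had 2 PU.1-type matches and 1 AP-1-type match, *F7* 1 PU.1-type match and *F3* 1 AP-1-type match, and *F10* had no match. A match is a description of letters. *F7* and *F10* are neighbours on chromosome 8, with their windows starting at 13025784 and 13037058 on the plus strand.

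**Figure D1:**
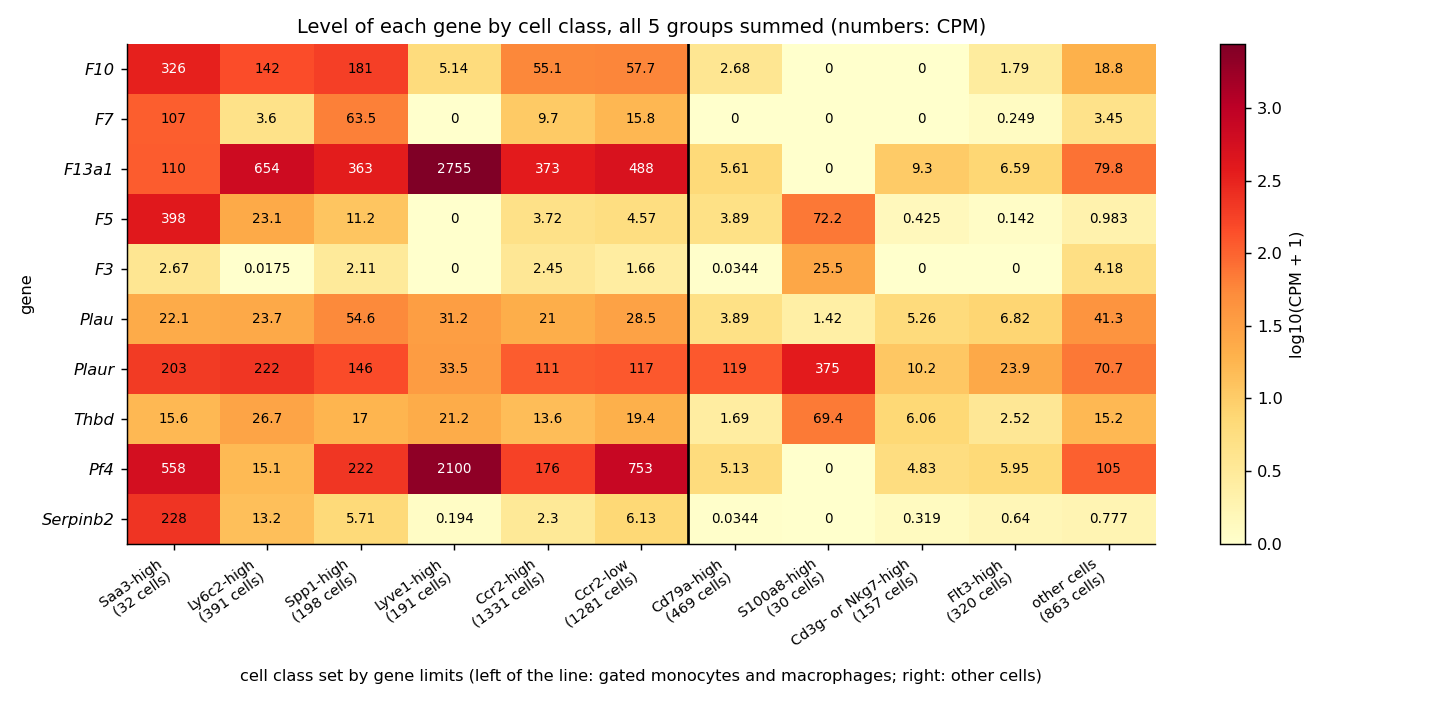
Level of each gene (rows) in 11 cell classes (columns), as CPM of the summed reads of all 5 groups. Color is log10(CPM + 1). The 6 classes left of the black line are gated monocytes and macrophages. *F13a1* at 2755 CPM and *Pf4* at 2100 CPM peaked in Lyve1-high cells, where *F10* was 5.14 CPM, while *F5* at 398 CPM and *Serpinb2* at 228 CPM peaked in Saa3-high cells.

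Tissue factor was scarcely read in these cells. *F3* in gated cells came to 2.45, 5.96, 1.08, 1.30 and 0.0792 CPM, the last being 6 reads in 4 cells. Every group was under 10 CPM, the minimum set for a comparison, and 1 cell held 61.5% of the *F3* reads in WT sham. Among all 11 classes *F3* was highest in the 30 S100a8-high cells outside the gate, at 25.5 CPM, where 1 cell held 61.1% of the reads. *S100a8* is a gene of neutrophils. Fibroblast markers summed to 53.1 CPM in gated cells of CD3ϵ-/- sham, the group with the highest *F3*, and to at most 2.504 CPM in the other groups, and their part in *F3* was not tested. In Ly6c2-high cells *F3* was 0.0175 CPM and in Lyve1-high cells no read was found.

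Factor VII, the partner of tissue factor, was read in few cells. *F7* in gated cells was 11.1, 24.3, 15.6, 20.6 and 13.7 CPM, from 12, 13, 33, 35 and 18 cells. The highest value, in CD3ϵ-/- sham, had 38.5% of its reads in 1 cell. By class *F7* was 107 CPM in Saa3-high and 63.5 CPM in Spp1-high cells. Spp1-high cells alone held 60.5% of the *F7* reads of WT sham and 68.6% of those of CD3ϵ-/- sham, although they were 15 and 11 cells. Within Spp1-high cells *F7* was 146, 331, 37.8, 32.2 and 20.2 CPM, so both sham groups stood above the 3 TAC groups. None of the 191 Lyve1-high cells had a read of *F7*, which at 3 cells allows a share of cells with a read, not of cells expressing the gene, of up to 1.57%, and none of the 469 Cd79a-high cells had one, which allows up to 0.640%.

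Factor X had its lowest level in WT sham. *F10* in gated cells was 41.2 CPM (exact Poisson 95% interval 39.5 to 43.0) in WT sham, 74.8 (72.6 to 77.1) in CD3ϵ-/- sham, 70.0 (68.6 to 71.4) in WT TAC, 98.7 (96.9 to 100.6) in CD3ϵ-/- TAC and 114 (112 to 116) in the sample labelled CD8-depleted TAC. No pair of these intervals overlapped. Each covers the error of counting alone and is too narrow even for that, since reads and not molecules were counted. Cells with an *F10* read, after each cell was thinned to 39109 reads, were 8.25%, 13.9%, 16.9%, 23.8% and 19.4% of gated cells and 1.30% of Cd79a-high cells. Before thinning they were 7.96%, 12.99%, 16.3%, 23.2% and 18.6%. Median reads were 100084 in gated and 47514 in Cd79a-high cells, and the thinning left out 92, 62, 102, 43 and 44 gated and 162 Cd79a-high cells. Order by share and order by level differed only in the last 2 groups and in the pair of CD3ϵ-/- sham and WT TAC.

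By class *F10* was 326 CPM in Saa3-high, 181 in Spp1-high and 142 in Ly6c2-high cells, against 5.14 CPM in Lyve1-high cells. Reads were found in 75.0%, 31.8%, 35.3% and 2.09% of the cells of these classes. *F10* was low in the Lyve1-high cells of each group, with 3.67, 3.32, 12.3, 0 and 2.65 CPM. In the more common Ccr2-high cells *F10* was 36.7, 54.9, 47.9, 73.0 and 61.8 CPM, and in Ccr2-low cells it was 19.8, 87.9, 54.9, 55.3 and 77.9 CPM. WT sham was thus the lowest group in both of these classes, but not in the others. Spp1-high cells had 235, 256, 126, 125 and 360 CPM, with WT and CD3ϵ-/- sham above WT and CD3ϵ-/- TAC. In Ly6c2-high cells WT sham was the highest, at 203 CPM against 70.1 to 182 in the other groups, with 74.1% of its reads in 1 of 19 cells.

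Factor V, the cofactor of factor X, stood apart in CD3ϵ-/- TAC. *F5* in gated cells was 3.89, 6.19, 6.03, 41.8 and 16.1 CPM, read in 7, 9, 27, 38 and 26 cells. The intervals of CD3ϵ-/- sham (5.56 to 6.87) and WT TAC (5.63 to 6.45) overlapped. The 24 Saa3-high cells of CD3ϵ-/- TAC held 77.7% of the *F5* reads of that group, and 6 such cells held 53.0% in the sample labelled CD8-depleted TAC. In those 24 cells *F5* was 386 CPM, with 32.1% of the reads in 1 cell. In Ly6c2-high cells *F5* was 64.9, 42.2, 31.1, 13.1 and 21.1 CPM, and here CD3ϵ-/- TAC was the lowest group. Spp1-high cells had no *F5* read in the sham groups and 4.50, 26.5 and 9.41 CPM in the 3 TAC groups. Outside the gate S100a8-high cells had 72.2 CPM, and Lyve1-high cells had no read. Cd79a-high cells, the background, had 3.89 CPM over all groups, the same as gated cells of WT sham. By group the background was 0, 2.74, 0, 0 and 19.4 CPM, the last from 2 of 73 cells and above the gated level of that sample.

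**Figure D2:**
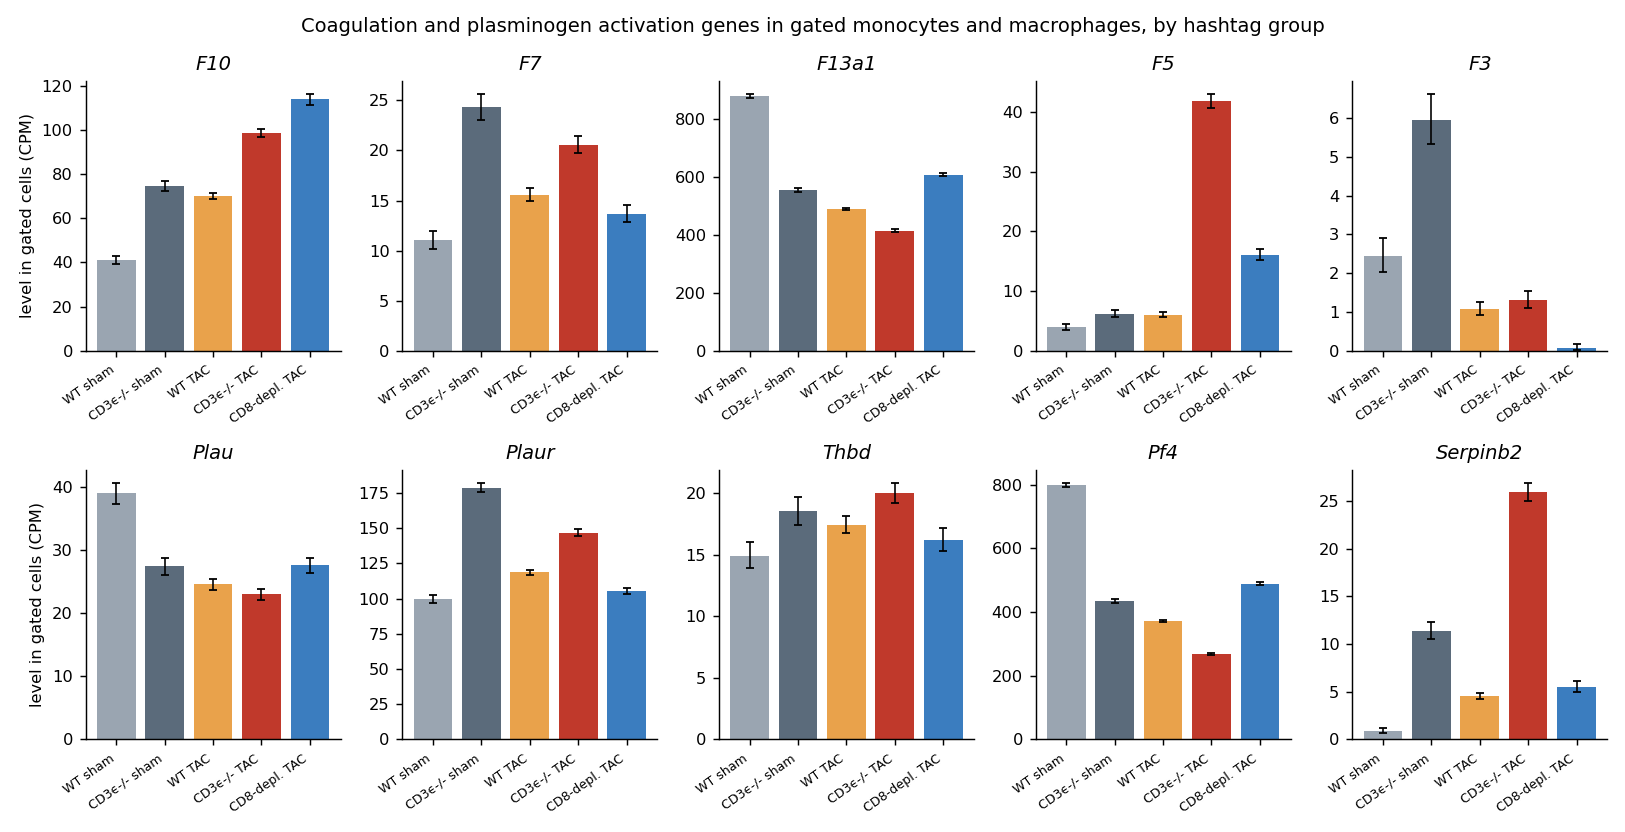
Level of each gene in gated monocytes and macrophages (CPM of summed reads, each panel with its own scale from 0) in the 5 groups, 1 sample each. Error bars are exact Poisson 95% intervals for counting error. *F5* and *Serpinb2* were highest in CD3ϵ-/- TAC, at 41.8 and 25.9 CPM, whereas *F13a1* and *Pf4* were highest in WT sham, at 881 and 799.6 CPM.

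Factor XIII A was highest in WT sham. *F13a1* in gated cells was 881 CPM (873 to 889) in WT sham, 557 (551 to 563) in CD3ϵ-/- sham, 492 (488 to 495) in WT TAC, 416 (412 to 419) in CD3ϵ-/- TAC and 609 (604 to 615) in the sample labelled CD8-depleted TAC. Thinned shares of cells with a read were 69.8%, 58.6%, 58.1%, 57.1% and 64.5%, against 1.95% of Cd79a-high cells. WT sham was highest on both measures. *F13a1* was read in 96.9% of Lyve1-high cells and its level there was 2957, 2387, 2888, 2260 and 2947 CPM. The lowest of these was CD3ϵ-/- TAC, with 13 cells. The Lyve1-high cells of WT sham held 37.9% of the *F13a1* reads of the group, and those of CD3ϵ-/- TAC 14.7%.

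Ly6c2-high cells also carried *F13a1*, at 1353, 1184, 650, 499.6 and 684 CPM, with both sham groups above the TAC groups. The same held in Spp1-high cells, at 669, 677, 274, 351 and 324 CPM. There, 1 of the 11 cells of CD3ϵ-/- sham held 65.4% of the *F13a1* reads, so its place rests largely on that cell. In Ccr2-low cells *F13a1* was 700.3, 417, 432, 377 and 565 CPM and in Ccr2-high cells 445, 370.1, 353, 352 and 398 CPM. WT sham was the highest group in Lyve1-high, Ly6c2-high, Ccr2-low and Ccr2-high cells, but not in Spp1-high cells, where CD3ϵ-/- sham was higher. Saa3-high cells of CD3ϵ-/- TAC had 59.5 CPM.

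Platelet factor 4 had the same group order as factor XIII A. *Pf4* in gated cells was 799.6 CPM (792 to 807) in WT sham, 435 (429 to 440) in CD3ϵ-/- sham, 371 (368 to 374) in WT TAC, 269 (266 to 272) in CD3ϵ-/- TAC and 490 (485 to 495) in the sample labelled CD8-depleted TAC. Its reads were found in 97.4% of Lyve1-high and 65.1% of Ccr2-low cells but in 2.56% of Ly6c2-high cells. This is where *Pf4* and *F13a1* parted, since Ly6c2-high cells had 15.1 CPM of *Pf4* and 654 CPM of *F13a1*. *Ppbp*, another platelet gene, was at 14.9 CPM in Lyve1-high and 13.7 CPM in Ccr2-low cells, and *Gp9* had no read in either class.

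In Lyve1-high cells *Pf4* was 2428, 1688, 2603, 636 and 2368 CPM, with CD3ϵ-/- TAC the lowest at 13 cells. In Ccr2-low cells it was 1024, 678, 602, 615 and 985 CPM. WT sham and the sample labelled CD8-depleted TAC were the highest pair there. In Spp1-high cells the direction was opposite, with 54.5 and 100.4 CPM in WT and CD3ϵ-/- sham and 229, 275 and 237 CPM after TAC, from 15 and 11 sham cells. Ccr2-low cells held 44.1% to 55.0% of the *Pf4* reads in every group.

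**Figure D3:**
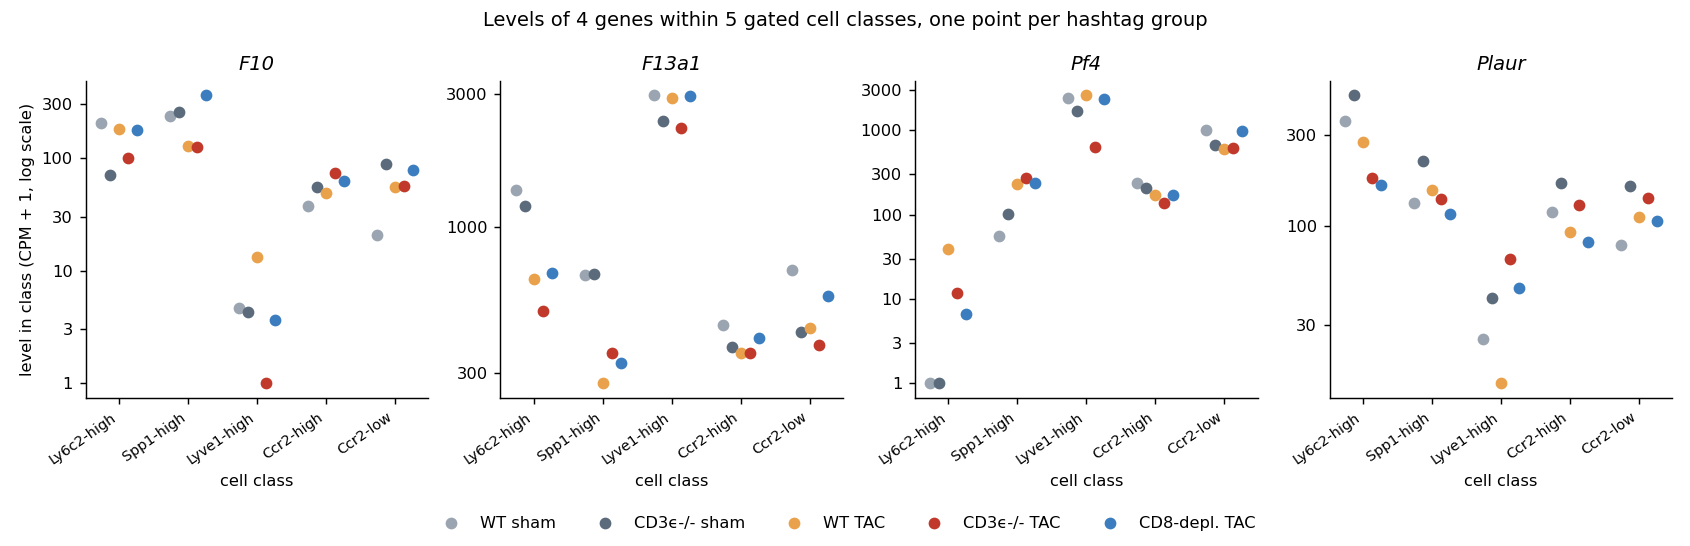
Levels of *F10*, *F13a1*, *Pf4* and *Plaur* within 5 gated classes (CPM + 1, log scale), with 1 point per group of 1 sample. *F13a1* in Lyve1-high cells stayed between 2260 and 2957 CPM in all 5 groups, whereas *Pf4* in the same cells was 636 CPM in CD3ϵ-/- TAC and 1688 to 2603 CPM in the others.

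Urokinase and its receptor had broad patterns. *Plau* in gated cells was 39.0, 27.4, 24.6, 23.0 and 27.6 CPM. WT sham was the highest group, and the intervals of CD3ϵ-/- sham (26.1 to 28.8) and the sample labelled CD8-depleted TAC (26.5 to 28.8) overlapped, as did those of WT TAC and CD3ϵ-/- TAC. Thinned shares with a read were 22.2% to 25.5% in the gated cells of the 5 groups and 10.1% in Cd79a-high cells. By class *Plau* was highest in Spp1-high cells at 54.6 CPM. Within them it was 226, 56.9, 41.8, 31.1 and 57.0 CPM, and the value of WT sham came from 15 cells with 39.6% of the reads in 1 of them. Cells outside the gate that met no other limit had 41.3 CPM.

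*Plaur* in gated cells was 99.8, 179, 119, 147 and 105 CPM, so that both CD3ϵ-/- groups were above the other 3. It was not particular to the gate, since S100a8-high cells had 375 CPM and Cd79a-high cells 119 CPM. The thinned share of cells with a *Plaur* read was 45.0% in Cd79a-high cells and 33.2%, 41.4%, 41.5%, 53.7% and 40.1% in gated cells. Within the gate, over all groups, Ly6c2-high cells were the highest class at 222 CPM, and their values by group were 356, 485, 276, 177 and 163 CPM. The sham groups were above the TAC groups there. Ccr2-high cells had 117, 167, 91.5, 127 and 81.5 CPM and Ccr2-low cells 77.7, 161, 109.6, 139 and 105 CPM, with CD3ϵ-/- sham highest in all 3 classes.

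PAI-2, like *F5*, had its highest level in Saa3-high cells. *Serpinb2* in gated cells was 0.884, 11.3, 4.54, 25.9 and 5.52 CPM, with reads in 23, 33, 69, 70 and 50 cells. A single cell held 62.6% of the reads in CD3ϵ-/- sham and 33.8% in CD3ϵ-/- TAC. The 24 Saa3-high cells of CD3ϵ-/- TAC had 245 CPM and 79.6% of the *Serpinb2* reads of their group, of which 42.5% came from 1 cell. In WT TAC the Ly6c2-high cells held 61.9% and had 28.0 CPM. Lyve1-high cells had 0.194 CPM. S100a8-high cells, where *F5* was 72.2 CPM, had no *Serpinb2* read.

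Thrombomodulin spanned a small range between groups. *Thbd* in gated cells was 14.9 (13.9 to 16.0), 18.5 (17.4 to 19.7), 17.4 (16.7 to 18.1), 20.005 (19.2 to 20.9) and 16.2 CPM (15.3 to 17.2), and in ascending order the interval of each group overlapped that of the next, though WT sham and CD3ϵ-/- TAC did not overlap. Outside the gate S100a8-high cells had 69.4 CPM, from 2 cells. By class it was 26.7 CPM in Ly6c2-high, 21.2 in Lyve1-high and 19.4 in Ccr2-low cells. In Ly6c2-high cells the groups were 35.9, 99.8, 11.6, 21.2 and 32.1 CPM, with 95.8% of the WT sham reads in 1 cell. Thinned shares were 7.82% to 14.5% of gated cells and 1.63% of Cd79a-high cells.

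**Figure D4:**
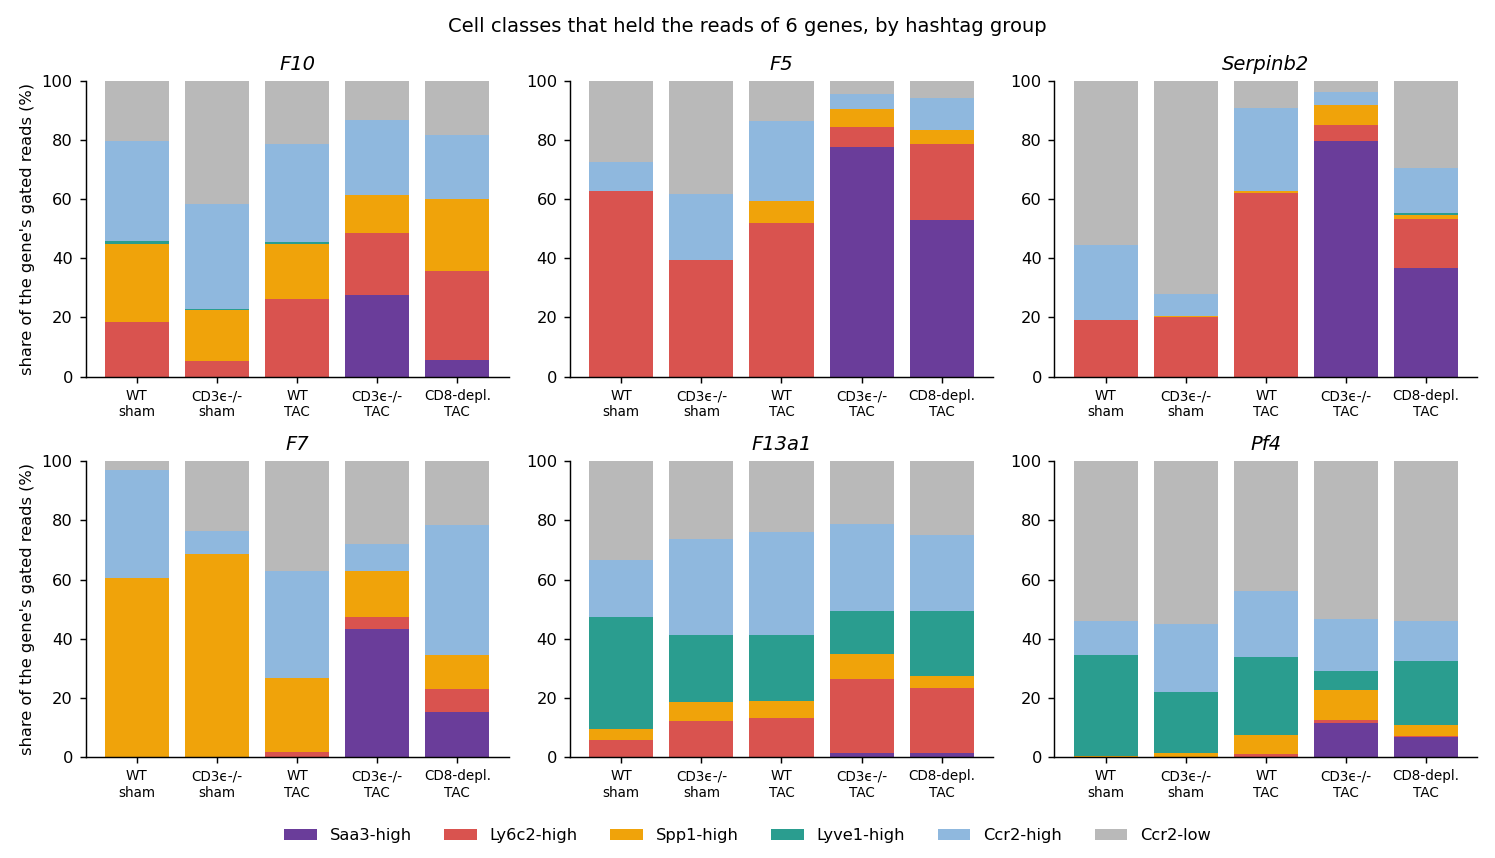
Share of the gated reads of 6 genes (%, y axis) held by each of 6 cell classes (colors) in each group (x axis). Saa3-high cells held 77.7% of the *F5* reads and 79.6% of the *Serpinb2* reads of CD3ϵ-/- TAC, and Spp1-high cells held 60.5% and 68.6% of the *F7* reads of WT and CD3ϵ-/- sham.

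The groups were then compared as log2 ratios of gated levels with 1 CPM added. A gene counted as past 2-fold at a ratio of 1 or more in size with at least 10 CPM in 1 of the pair. Since the 10 genes had been selected with these contrasts known, the counts are a description, and the share of all genes past 2-fold is given beside them. Comparisons that use the same group are not independent of each other.

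For WT TAC to WT sham, the samples with and without pressure overload in WT mice, 7 of the 10 genes reached 10 CPM. *Pf4* was past 2-fold lower, at 0.464 times its sham level (0.458 to 0.470) and a log2 ratio of -1.10. None was past 2-fold higher. Among 9191 genes, 1.77% were past 2-fold higher and 1.47% lower. *F13a1* had a log2 ratio of -0.84, *Plau* -0.65 and *F10* 0.75. The median was 0.21 over the 7 genes and 0.02 over all genes. With the class mix held fixed, where each of 5 classes kept its pooled weight and Saa3-high cells were left out, *Pf4* had a ratio of -0.40 and *F10* of 0.07, while *F13a1* had -0.56.

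For CD3ϵ-/- TAC to CD3ϵ-/- sham, *F5* was past 2-fold higher, at 6.75 times the sham level (6.05 to 7.55) and a log2 ratio of 2.57. *Serpinb2* was also past 2-fold higher, at 2.29 times (2.099 to 2.497) and a ratio of 1.13. These were 2 of 9 genes, none was past 2-fold lower, and 3.01% of 9116 genes were higher and 2.03% lower. The median was -0.23 over the 9 genes and 0.05 over all genes. Without Saa3-high cells *F5* had a log2 ratio of 0.63 and *Serpinb2* one of -0.86, so no gene was past 2-fold higher. *Pf4* (-0.69), *F13a1* (-0.42) and *F10* (0.40) had ratios of the same sign as in WT mice. *F7* (-0.23) and *Plaur* (-0.28) did not, and this difference was not tested.

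**Figure D5:**
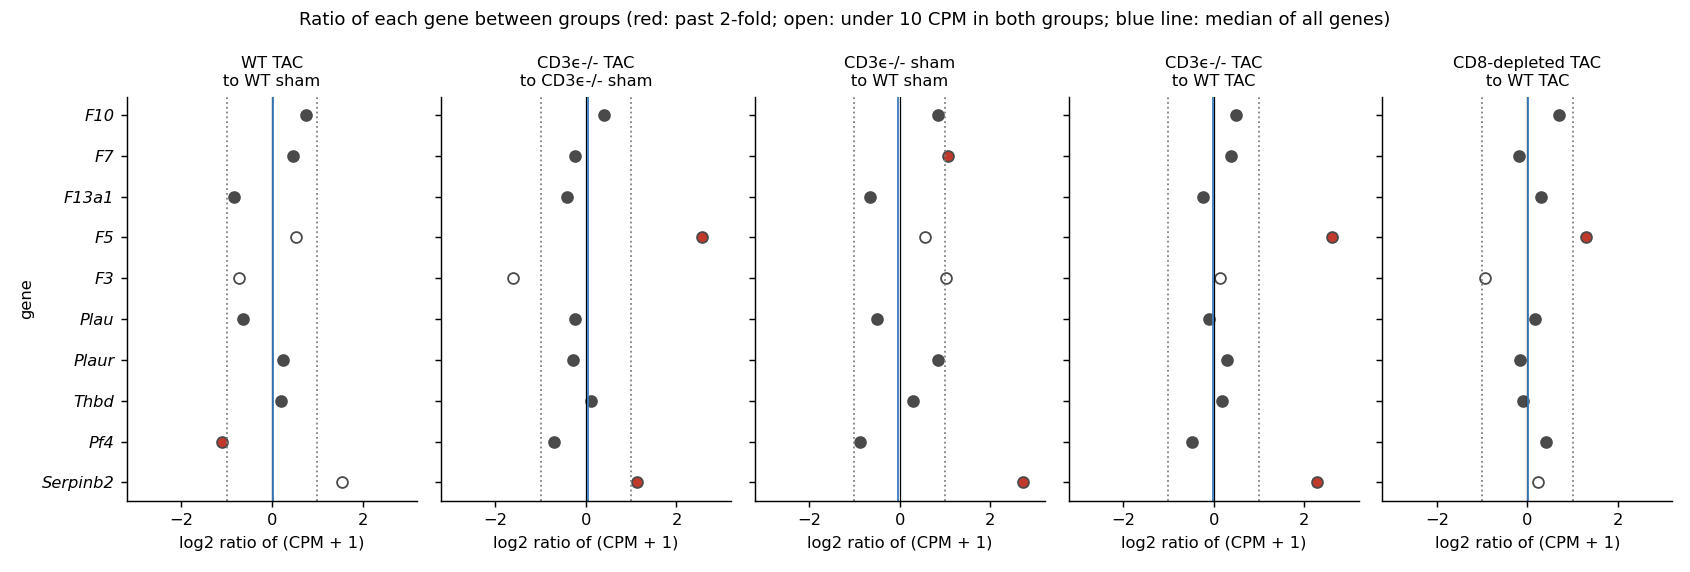
Log2 ratio of (CPM + 1) of each gene in 5 comparisons of groups, 1 sample each. Red points are past 2-fold (dotted lines), open points are under 10 CPM in both groups, and the blue line is the median of all genes. *F5* lay at 2.57, 2.61 and 1.28 in the comparisons of CD3ϵ-/- TAC to CD3ϵ-/- sham, CD3ϵ-/- TAC to WT TAC and the sample labelled CD8-depleted TAC to WT TAC.

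For CD3ϵ-/- sham to WT sham, the samples without load, *Serpinb2* was 12.8 times the WT level (9.53 to 17.6) with a log2 ratio of 2.71. *F7* was 2.20 times (1.996 to 2.43) with a ratio of 1.07. These 2 of 8 genes were past 2-fold higher and none lower, beside 0.942% higher and 1.04% lower among 9127 genes. The median was 0.56 over the 8 genes and -0.03 over all genes. Both rest on single cells, since without the top cell of each group *Serpinb2* was under 10 CPM in both, with a ratio of 1.59, and *F7* had a ratio of 0.72. *Plaur* (0.84) and *F10* (0.84) were higher by less than 2-fold, and *Pf4* (-0.88) and *F13a1* (-0.66) lower.

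For CD3ϵ-/- TAC to WT TAC, *F5* was 6.93 times the WT level (6.44 to 7.47) with a log2 ratio of 2.61, and *Serpinb2* 5.72 times (5.24 to 6.24) with a ratio of 2.28. These were 2 of 9 genes higher and none lower, while 0.598% of 9035 genes were higher and 0.421% lower. Medians were 0.30 over the 9 genes and -0.0027 over all genes. Without Saa3-high cells the ratios were 0.67 and 0.29, and without the top cell of each gene 2.44 and 2.103. *F10* had a ratio of 0.49 and, without Saa3-high cells, of 0.16.

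For the sample labelled CD8-depleted TAC to WT TAC, *F5* was 2.67 times (2.44 to 2.92) with a log2 ratio of 1.28, as 1 of 8 genes higher and none lower. Among 9046 genes 0.265% were higher and 0.177% lower, and the medians were 0.24 over the 8 genes and 0.0036 over all. Without Saa3-high cells, 6 in this group, the *F5* ratio was 0.30, and without the top cell it was 0.97. In Cd79a-high cells, the background, *F5* was 19.4 CPM in this group and 0 in WT TAC. *F10* had a ratio of 0.70 that was 0.64 without Saa3-high cells. *Pf4* (0.40) and *F13a1* (0.31) were higher here, unlike in CD3ϵ-/- TAC, where they had ratios of -0.47 and -0.24 to the same WT TAC cells.

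Each class was also compared with the other gated cells of the same groups, at equal weight for groups with 10 or more cells of the class. In Saa3-high cells of CD3ϵ-/- TAC, 4 of 9 genes were past 2-fold higher, beside 5.59% of all genes tested, namely *Serpinb2* (log2 ratio 5.18), *F5* (5.12), *F7* (2.96) and *F10* (2.03). They remained 4 without the top cell of each gene. *F13a1* had a ratio of -2.89. In Ly6c2-high cells *Plaur* (1.32), *Thbd* (1.31) and *F5* (1.19) were past 2-fold higher, as 3 of 9 beside 4.64%, and *F10* was just short of the limit at 0.99. Without the top cell of each gene *Thbd* was no longer past 2-fold, and at double class limits *F5* was not. *Pf4* had a ratio of -5.48 there.

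In Spp1-high cells *F7* (3.18), *Plau* (1.68) and *F10* (1.64) were past 2-fold higher, as 3 of 9 beside 2.88% of all genes. In Lyve1-high cells *F13a1* (2.52) and *Pf4* (2.35) were, as 2 of 9 beside 5.85%. The ratios of *F10*, *Serpinb2* and *Plaur* there were -3.97, -3.15 and -1.80, and *F7* and *F5* had no read. Each of the 4 classes thus had its own set, with *F10* shared by Saa3-high and Spp1-high cells, *F7* by the same classes and *F5* by Saa3-high and Ly6c2-high cells.

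Single cells often carried reads of both *F7* and *F10*. Of 111 gated cells with an *F7* read, 91 (82.0%) also had an *F10* read, against 16.2% of all gated cells, and they made up 16.4% of the 556 cells with *F10*. Of 107 cells with *F5*, 67 (62.6%) had *F10* and 35 (32.7%) had *Serpinb2*, which was read in 7.16% of gated cells. Of the cells with *Serpinb2*, 14.3% had *F5*, against 3.125% of gated cells. *Plaur* was read in 84.5% of the 245 *Serpinb2* cells and 48.4% of gated cells. *Pf4* and *F10* were seldom read together, with 93 cells or 16.7% of those with *F10*, while 44.6% of gated cells had *Pf4*. These shares were not corrected for depth, which was highest in Saa3-high cells at a median of 258110 reads.

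The genes closest to each one in pattern were found by Pearson's r of log2(CPM + 10) over 40 combinations of class and group with 20 or more cells, among 9717 genes. The points share libraries and depth, and the values are a description. *F10* was closest to *Clec4e* (r = 0.95) and *Clec4d* (0.94), which encode C-type lectins. *F5* and *Serpinb2* were closest to each other (0.92) and then to *Padi4* (0.89 and 0.90). *Saa3*, which set a class, came next for *F5* (0.85). Saa3-high cells entered the 40 combinations only through CD3ϵ-/- TAC, where *F5* was 386 CPM in 24 cells. How far the values of *F5* and *Serpinb2* rest on that point was not tested. *F13a1* was closest to *Rgl1* (0.93) and *Adap2* (0.93), and *Pf4* to *Wwp1*, *Trim47* and *Igf1*, the gene of insulin-like growth factor 1, all at 0.94. *Plau* was closest to the chemokine gene *Ccl7* (0.91), *F7* to *Fam20c* (0.86), *Plaur* to *Ceacam1* (0.82), *Thbd* to the hepatocyte growth factor gene *Hgf* (0.78) and *F3* to the chemokine gene *Cxcl1* (0.71).

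Of 46 other genes of coagulation and fibrinolysis, 34 were kept, and 17 to 19 of them reached 10 CPM in a comparison. *Tgm2*, tissue transglutaminase and a relative of factor XIII A, was 25.7, 44.0, 168, 255 and 181 CPM. It was past 2-fold higher after TAC in WT (log2 ratio 2.66) and CD3ϵ-/- mice (2.51). *Hpse*, encoding heparanase, was past 2-fold higher in WT TAC (1.07), at 42.4 against 19.7 CPM, and in CD3ϵ-/- mice it was just short of that (0.94), at 46.7 against 23.8 CPM.

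*F2rl2*, a thrombin receptor, was 4.67, 12.1, 2.08, 3.32 and 1.81 CPM, under the 20 CPM set for description, and was past 2-fold higher in CD3ϵ-/- sham than in WT sham and lower in CD3ϵ-/- TAC than in CD3ϵ-/- sham. In all, 2 of 17 of these genes were past 2-fold higher and none lower for TAC in WT mice (*Tgm2* and *Hpse*). Of all genes tested there, 1.77% were higher and 1.47% lower. For CD3ϵ-/- sham to WT sham 1 of 18 was higher, beside 0.942% of all genes. For the sample labelled CD8-depleted TAC to WT TAC none of 17 was in either direction, beside 0.265% higher and 0.177% lower. The 5 genes with the most reads were described by rule. They included *Anxa5* (459 to 571 CPM), encoding annexin A5, and *Anxa2* (547 to 716 CPM) and *S100a10* (422 to 648 CPM), which form a plasminogen-binding complex. *Itgam* was 375, 503, 615, 847 and 572 CPM and *Itgb2* 345, 488, 468, 637 and 469 CPM, and their products form the integrin Mac-1. Against the other gated cells, 2 of 18 of these genes were past 2-fold higher in Ly6c2-high cells (*Tgm2* and *Hpse*) and 4 of 19 in Lyve1-high cells (*Serpinb6a*, *Serpinb8*, *Gas6* and *Ggcx*, the vitamin K-dependent carboxylase). The shares of all genes tested were 4.64% in Ly6c2-high and 5.85% in Lyve1-high cells. In Saa3-high cells *Serpinb6a*, *Tgm2*, *Itgam*, *Itgb2* and *Pros1*, the gene of protein S, were among those past 2-fold higher, and in Spp1-high cells *Mcfd2*, a partner in factor V secretion, was. *Gas6*, a vitamin K-dependent ligand, was 605 CPM in Lyve1-high and 4.84 CPM in Ly6c2-high cells. Prothrombin (*F2*) was at most 0.106 CPM in any group, and the fibrinogen genes and plasminogen were not among the genes kept.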

How the data were processed

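The read counts per gene and cell were deposited by the authors without normalization, after trimming and mapping (the submitters' processing notes list cutadapt 2.10, Bowtie2 2.4.2 and GRCm38), error correction and hashtag assignment. They are reads, not molecules. Groups were taken from notes deposited with the matrix. Of 5363 columns, 48 without a single hashtag (8 not detected and 40 doublets) were not used, no further doublet caller was run, and barcodes shared between hashtags numbered 0. Filters kept 27767 genes seen in at least 5 cells, and 5263 cells with at least 500 genes and no more than a 0.4 mitochondrial share, 3424 of them gated. Levels are CPM of summed reads per group or class, with exact Poisson intervals, and shares carry Clopper-Pearson (exact) intervals, both at 95% and for counting error only. With 1 sample per group no test was made. Tools were Python 3.11.15, pandas 2.3.3, scipy 1.17.1, numpy 2.4.6 and, for plots, matplotlib 3.10.9, and the ratio step was tested on simulated data. The simulation drew Poisson counts for genes at higher levels than *F5*, *F7*, *Serpinb2*, *F3*, *Plau* and *Thbd* had in gated cells. It therefore does not cover ratios at such levels or ratios that rest on single cells. Members, gene lists, classes, motifs and limits were chosen with earlier results of these data known. Named genes were the 10 members, listed pathway genes with at least 20 CPM and past 2-fold or among the 5 highest, and genes among the 3 closest in pattern; some results under this rule are not reported here. *Gas6*, *F2*, *F2rl2* and *Ppbp* were named after their values were seen. Alternatives covered scaling, pseudocount, filters, gate and class limits, class order, doublet-like cells, mitochondrial share, Saa3-high cells, top cells and class mix.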

Additional observations from a re-analysis of the deposited data

Results flagged for a closer look

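Results in which the ratio of TAC to sham had opposite directions in the samples of the 2 genotypes were taken up here. The difference was not tested because each group was 1 sample. *F7* had a log2 ratio of TAC to sham of 0.46 in WT and -0.23 in CD3ϵ-/- mice. The second value was 0.24 without the top cell of each gene and 0.44 as a mean of single-cell CPM, so its sign rests on a few cells. With the class mix held fixed *F7* had ratios of -0.20 in WT and -1.36 in CD3ϵ-/- mice, both in the same direction. *Plaur* had log2 ratios of 0.25 in WT and -0.28 in CD3ϵ-/- mice, and with the class mix held fixed the value in WT mice was -0.12. Groups of 1 sample allow no check for outlying samples.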

How the results depend on the processing

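No paired analysis was possible because each group was 1 sample, and no replicate could be left out. Of 136 counts under alternatives, 109 equalled the main count or were within 1.5 times of it, and 27 were not. Counts of 0 that stayed at 0 are among the 109. The counts of members past 2-fold higher were 0, 2, 2, 2 and 1 for WT TAC to WT sham, CD3ϵ-/- TAC to CD3ϵ-/- sham, CD3ϵ-/- sham to WT sham, CD3ϵ-/- TAC to WT TAC and the sample labelled CD8-depleted TAC to WT TAC. The first was 1 without a filter on low values, as a mean of single-cell CPM and in all CD45+ cells. The second was 1 with a pseudocount of 10 CPM, as a mean of single-cell CPM and at double gate limits, and 0 without Saa3-high cells and with the class mix fixed. The third was 0 with a pseudocount of 10 CPM, as a mean of single-cell CPM and without the top cell, and 1 at double gate limits, in all CD45+ cells and with the class mix fixed. The fourth was 0 without Saa3-high cells and with the class mix fixed. The fifth was 0 with a pseudocount of 10 CPM, as a mean of single-cell CPM, without Saa3-high cells, without the top cell and with the class mix fixed. Counts lower were 1 for TAC in WT mice (*Pf4*), which was 0 as a mean of single-cell CPM, in all CD45+ cells and with the class mix fixed, and 0 for TAC in CD3ϵ-/- mice, which was 1 without a filter (*F3*) and as a mean of single-cell CPM (*Pf4*) and 2 with the class mix fixed. Of 96 values of the 8 ratios past 2-fold, 4 reversed, namely *Serpinb2* for TAC in CD3ϵ-/- mice at -0.86 without Saa3-high cells and -1.20 with the class mix fixed, *Serpinb2* for CD3ϵ-/- TAC to WT TAC at -0.066 and *F5* for the sample labelled CD8-depleted TAC to WT TAC at -0.060, both with the class mix fixed. The cause of these moves was not tested. Fixing the class mix leaves out Saa3-high cells by construction, and it was added after the data were seen, as was the top cell setting for classes. For the 4 classes, lower class limits gave 6 members in Saa3-high and 2 in Ly6c2-high cells, and the other class settings gave 2 to 4. Thinning moved 15 of 50 shares of cells outside their interval. Median-of-ratios scaling moved the median of all genes by at most 0.04 (log2).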
